A study of Mus musculus with 8 samples.

Results

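Of the 5886 LRH-1 peaks found in the mouse ovary before the ovulatory signal, 633 were lost together with their open chromatin. These sites were chosen by the presence or absence of peaks in the authors' lists. They overlapped a peak of FAIRE (formaldehyde-assisted isolation of regulatory elements, an assay of open chromatin) before the signal, by at least 1 bp. They overlapped no LRH-1 peak and no FAIRE peak 4 h after it. These 633 sites made up 10.8% of the LRH-1 peaks before the signal and 32.5% (exact binomial 95% confidence interval 30.4 to 34.6) of the 1948 LRH-1 peaks that were lost. The study used C57BL/6 mice of 22 to 25 days, labelled LRH-1 +/+, that had all been given 5 IU of equine chorionic gonadotropin (eCG) to make follicles grow. The ovulatory signal, 44 h after eCG, was 5 IU of human chorionic gonadotropin (hCG), which takes the place of the luteinising hormone surge. Samples labelled as without this signal date from 0 h, here called before hCG. Those labelled as with it date from 4 h, called after hCG. FAIRE was done on granulosa cells that had been let out of punctured ovaries, and LRH-1 chromatin immunoprecipitation (ChIP) on pieces of ovary, with n = 5 per condition. The ChIP lists can therefore hold sites from other ovarian cells, although their source is labelled granulosa cells, and no marker gene could be read from peak lists.

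LRH-1 (NR5A2) is a nuclear receptor that binds DNA as a monomer, and granulosa cells need it for ovulation and steroid synthesis. Nuclear receptors of this kind bind mostly at enhancers and promoters, where nucleosomes are displaced and FAIRE recovers the DNA. After the luteinising hormone surge, granulosa cells stop dividing and begin to turn into luteal cells, and many of their enhancers change.

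The 4 lists held 5886 and 9413 LRH-1 peaks and 21431 and 22791 FAIRE peaks before and after hCG. By the same overlap of 1 bp, 33.1% of all LRH-1 peaks and 46.2% of all FAIRE peaks before hCG had no counterpart after it. Conversely, 58.1% of LRH-1 peaks and 49.4% of FAIRE peaks after hCG had none before it. Of the 3159 LRH-1 peaks at a FAIRE peak before hCG, 1506 (47.7%) overlapped no FAIRE peak after it. These 1506 were the 633 sites and 873 LRH-1 peaks that persisted. Each assay has 1 list per time, so nothing could be tested over samples, and the presence or absence that chose the 633 sites is given as a description. Intervals cover counting error only, and peaks that share a neighbourhood are not independent. A site with a signal below the authors' calling threshold counts as lost here. Positions are in build mm9, and no mm9 sequence or gene annotation was used here, so the sites are given by position and not by gene.

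The 633 sites were bound weakly to moderately before hCG. Their authors' fold enrichment over background ran from 3.47 to 11.1, with a median of 5.5 (95% interval of the median 5.42 to 5.54) against 5.75 over all LRH-1 peaks before hCG. The −log10 of their q-value had a median of 7.66 and ran from 3.03 to 34.6, where 2.58 was the lowest in the list. Only 20 of the sites (3.16%) stood in the best-scoring 588 peaks by that value, and 244 (38.5%) in the better-scoring 2943. The same closing of chromatin was seen at 873 LRH-1 peaks that persisted after hCG, here called persistent sites in closing chromatin, and these were more enriched before hCG, with a median of 6.3-fold and a −log10 q of 11.3. The 284 lost peaks at FAIRE peaks of both times and the 971 lost peaks without a FAIRE peak had medians of 5.37-fold and 5.29-fold. The 95% intervals of these medians were 5.19 to 5.48 for the 284 peaks and 5.24 to 5.35 for the 971. Fold enrichment comes from a list that the rule used, so these values describe the groups and were not tested.

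The best-scoring of the 633 sites lay on chromosome 2 from 38353656 to 38354252, with 11.1-fold enrichment and a −log10 q of 34.6, which ranked 156 of 5886. Its FAIRE peak, from 38353350 to 38354198, scored 62.5 before hCG. Neither was listed after hCG, when the nearest LRH-1 peak lay 31.6 kb away and was a gained one. The next, on chromosome 4 from 136949342 to 136949645, was 8.93-fold enriched in a FAIRE peak with a score of 164. Here an LRH-1 peak present at both times stood 3.32 kb from the lost summit. The third, on chromosome 17 from 14576821 to 14577154, was 10.7-fold enriched in a FAIRE peak with a score of 99, and LRH-1 after hCG was found no nearer than 90.7 kb. The site on chromosome 10 from 126822832 to 126823173 was 8.35-fold enriched in a wide FAIRE peak of 1858 bp (score 181). At its other end both a persistent LRH-1 peak, 902 bp from the lost summit, and a FAIRE peak with a score of 63.3 were listed after hCG. The fifth, on chromosome 3 from 101977814 to 101978151, was 10.9-fold enriched in a FAIRE peak that scored 48.5, near the lowest score of the list (40). The FAIRE scores of these 5 strongly bound sites thus ran from 48.5 to 181.

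The FAIRE peaks that held the sites were of middling strength before hCG. There were 632 of them, as 1 held a pair of sites. Their authors' scores ran from 40.1 to 285 with a median of 69.6 (95% interval of the median 66.3 to 73.0), close to the 70.5 over all FAIRE peaks before hCG. FAIRE peaks under lost LRH-1 peaks that stayed open at both times had a median of 112, and those under persistent sites in closing chromatin 75. The 9910 FAIRE peaks that were lost in all had a median of 57.0. The 8093 of those that held no LRH-1 peak at either time had one of 55.2, so the peaks that held the sites scored above the usual closing FAIRE peak. They were 964 bp wide in the median (range 382 to 2745), against 887 bp for all lost FAIRE peaks.

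The strongest of these FAIRE peaks did not hold the strongest LRH-1 binding. The FAIRE peak with the highest score (285), on chromosome 4 from 149685336 to 149686909, held a lost site from 149686266 to 149686540 with only 4.2-fold enrichment. A persistent LRH-1 peak lay 692 bp from that site in the same FAIRE peak. The next by score, 275 on chromosome 7 from 117824245 to 117825269, held a 5.14-fold site. On chromosome 11, a FAIRE peak from 38673770 to 38674922 (score 272) held a 5.76-fold site whose summit lay 2.5 bp from its middle. This site was remote from LRH-1 after hCG, with the nearest peak 2480 kb away. A FAIRE peak on chromosome 6 from 48591599 to 48593506 (score 266) held a 3.75-fold site that ranked 5870 of 5886. A FAIRE peak after hCG with a score of 50.4 was still listed at its other end, 305 bp from the lost site. A FAIRE peak on chromosome 8 from 63314313 to 63315419 (score 263) held a 5.08-fold site. Over the 633 sites, Spearman's rho between LRH-1 fold enrichment and FAIRE score was 0.016, given as a description across sites. It was 0.0055 over the 284 lost peaks at FAIRE peaks of both times, 0.132 over the 873 persistent sites in closing chromatin and 0.135 over the 1369 persistent peaks at FAIRE peaks of both times.

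**Figure D1:**
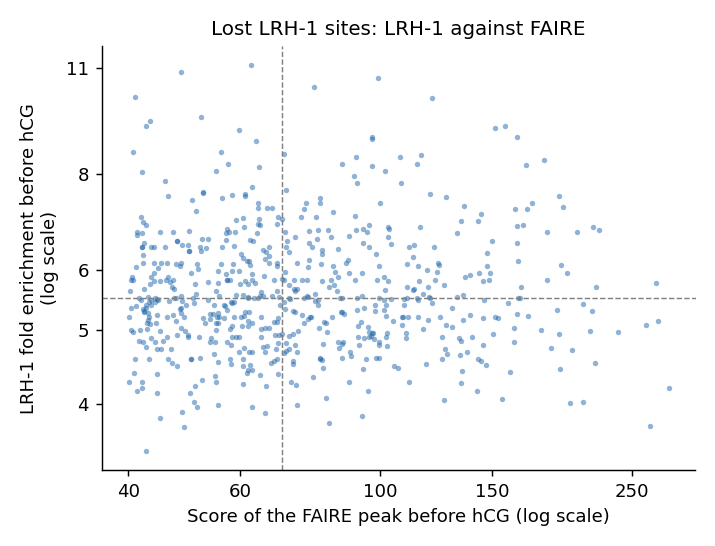
Authors' LRH-1 fold enrichment (vertical, log scale) against the authors' score of the FAIRE peak that holds the site (horizontal, log scale), both before hCG, 1 point for each of the 633 sites. Dashed lines mark the medians of 5.5-fold and, over sites, of the FAIRE score, and the points show no slope (Spearman's rho 0.016).

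LRH-1 sat near the middle of the open region. The summit lay a median of 73.5 bp from the middle of the FAIRE peak (95% interval 67.5 to 80.5), or 7.95% of its width, and within 100 bp of it at 388 sites (61.3%). The median was the same at the persistent sites in closing chromatin (73.5 bp) and 90.5 bp at lost sites in FAIRE peaks of both times (lower bound of its 95% interval 80.5 bp). Of the 633 sites, 608 (96.1%) lay wholly inside the FAIRE peak and 25 crossed its edge, 6 of these with the summit outside. Almost every FAIRE peak, 625 of 632, held a single LRH-1 peak before hCG. The exception with a pair of lost sites lay on chromosome 1 from 129842613 to 129843661 (score 71.7). It held a 4.91-fold site from 129842478 to 129842713 and a 6.32-fold site from 129842915 to 129843253.

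**Figure D2:**
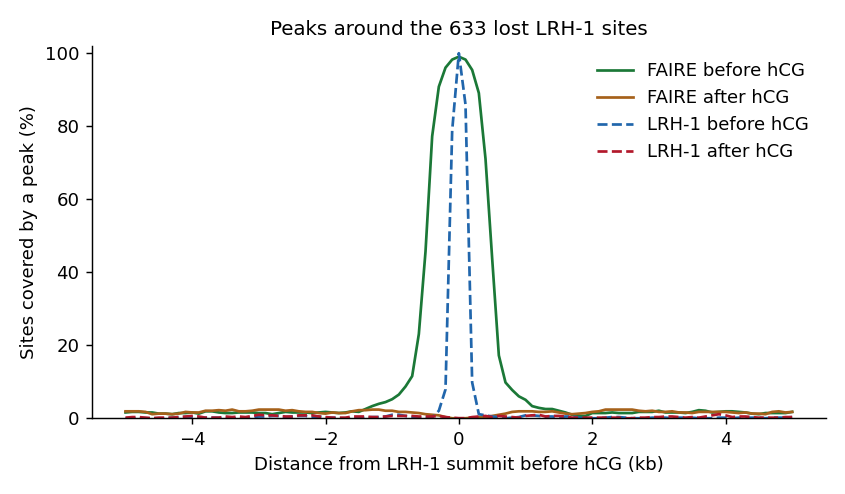
Share of the 633 sites at which each distance from the LRH-1 summit before hCG (horizontal, kb) was covered by a peak of each list (vertical, percent). FAIRE before hCG covers 99.1% of summits and 45.7% and 43.8% of positions 500 bp to the left and right, while both lists after hCG are at 0 at the summit, as the rule requires, and near the level of the surroundings beyond 1 kb.

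At most sites no part of the FAIRE peak overlapped a peak after hCG. The rule largely sets this, as it bars such peaks from the site, which mostly lay near the middle of the FAIRE peak. At 605 of 633 sites the FAIRE peak overlapped neither a FAIRE peak nor an LRH-1 peak after hCG anywhere along its length. At 16 sites it overlapped a FAIRE peak after hCG outside the lost LRH-1 peak. At 13 it overlapped an LRH-1 peak after hCG, and 1 site had both. In those 13 FAIRE peaks the LRH-1 summit after hCG stood 177 to 1087 bp from the lost one (median 563 bp), and it belonged to a gained peak in 7 and to a persistent one in 6. On chromosome 9, for example, the FAIRE peak from 77430863 to 77431995 (score 68.8) held a lost 4.58-fold site from 77431351 to 77431609 and, 8 bp beyond its edge, a gained 5.27-fold peak from 77431618 to 77431850. On chromosome 2, a persistent 5.07-fold peak from 155269035 to 155269564 began 9 bp beyond the lost 4.53-fold site from 155268687 to 155269025. In both of them LRH-1 was listed after hCG inside the boundaries of a FAIRE peak that was itself no longer listed.

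By distance in bp, few sites stood near the limits of the rule. Nearness of a signal to the calling threshold is not counted here. An LRH-1 peak after hCG lay within 100 bp of the edge of 6 sites (0.948%) and within 500 bp of 14 (2.21%). For FAIRE peaks after hCG the numbers were 4 (0.632%) and 16 (2.53%). The closest FAIRE peaks after hCG stood 48 bp from a 4.99-fold site on chromosome 7 (59518478 to 59518724) and 52 bp from a 3.99-fold site on chromosome 17 (66012682 to 66012900). The shortest overlaps with FAIRE before hCG were 1 bp, at a 4.89-fold site on chromosome 10 (23852400 to 23852618), and 23 bp, at a 7.03-fold site on the same chromosome (24240333 to 24240685). Just outside the rule, a 4.14-fold peak on chromosome 2 (55286954 to 55287214) overlapped LRH-1 after hCG by 32 bp and a 4.99-fold peak on chromosome 16 (94967667 to 94967908) by 39 bp. A 4.80-fold peak on chromosome 9 (22847380 to 22847758) and a 4.69-fold peak on chromosome 4 (137548663 to 137548881) overlapped FAIRE after hCG by 6 and 9 bp.

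LRH-1 after hCG was less often within 100 kb of the sites than of lost peaks without a FAIRE peak. Lost peaks at FAIRE peaks of both times were similar to the sites. The nearest LRH-1 summit after hCG lay a median of 52.8 kb away (95% interval 44.7 to 64.5), against 38.0 kb (32.4 to 45.1) for lost peaks without a FAIRE peak and 45.1 kb (34.0 to 65.9) for those at FAIRE peaks of both times. With the lists after hCG shortened to the length of those before hCG, which gave 843 sites, the median was 84.2 kb (72.0 to 96.7). Within 100 kb, 406 sites (64.1%, 95% interval 60.3 to 67.9) had an LRH-1 peak after hCG, against 72.9% (70.0 to 75.7) and 66.5% (60.7 to 72.0) in those groups. Within 10 kb, 118 sites (18.6%) had one, against 22.6% (20.0 to 25.3) and 18.0% (13.7 to 22.9) in those groups. The nearest LRH-1 peak after hCG was a gained one at 349 sites (55.1%), close to the 58.1% of gained peaks in the whole list. A gained peak lay within 10 kb of 67 sites (10.6%), against 13.2% (11.1 to 15.5) of lost peaks without a FAIRE peak and 12.4% (10.3 to 14.7) of persistent sites in closing chromatin. The interval at the sites, 8.30 to 13.2, overlaps both.

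**Figure D3:**
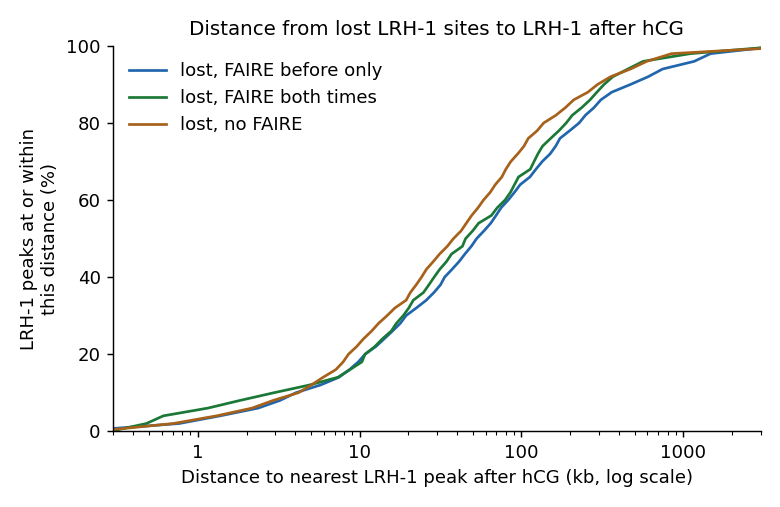
Share of lost LRH-1 peaks (vertical, percent) with an LRH-1 summit after hCG at or within a given distance (horizontal, kb, log scale), for the 633 sites lost with their FAIRE peak, 284 lost at FAIRE peaks of both times and 971 lost without a FAIRE peak. The curve of the 633 sites lies to the right of that of the 971, with medians of 52.8 and 38.0 kb.

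FAIRE peaks after hCG were also farther from the sites than from lost peaks without a FAIRE peak. The nearest lay a median of 25.2 kb away (95% interval 21.7 to 28.6), against 16.3 kb both for lost peaks without a FAIRE peak (15.0 to 18.5) and for persistent sites in closing chromatin (14.1 to 18.4). A FAIRE peak after hCG stood within 10 kb of 178 sites (28.1%, 95% interval 24.6 to 31.8), compared with 36.1% (33.1 to 39.3) of lost peaks without a FAIRE peak. At 406 sites (64.1%, 95% interval 60.3 to 67.9) neither assay had a peak within 10 kb after hCG, and at 73 (11.5%, 9.15 to 14.3) none within 100 kb. These shares were 55.2% (52.0 to 58.4) and 7.11% (5.57 to 8.91) for lost peaks without a FAIRE peak. Both groups lack overlapping peaks after hCG by definition. Before hCG, too, neighbouring peaks lay farther from the sites. Their nearest other FAIRE peak before hCG lay a median of 23.4 kb away (20.6 to 26.6), against 18.8 kb (16.9 to 20.7) for lost peaks without a FAIRE peak and 17.2 kb (15.7 to 18.9) for persistent sites in closing chromatin. Their nearest other LRH-1 peak lay 78.6 kb away (64.9 to 91.9), against 58.8 and 55.6 kb. The part of this lower density in the distances after hCG was not tested.

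The FAIRE peaks next to the sites were lost somewhat more often than FAIRE peaks in general, but the intervals overlap those of similar groups of LRH-1 peaks. The nearest other FAIRE peak before hCG was lost at 339 of 633 sites (53.6%, 95% interval 49.6 to 57.5), where 46.2% of all FAIRE peaks before hCG were lost. The same share was 48.1% (44.7 to 51.5) for persistent sites in closing chromatin, 46.8% (40.9 to 52.8) for lost peaks at FAIRE peaks of both times and 46.5% (43.4 to 49.7) for lost peaks without a FAIRE peak. The interval of the 633 sites lies above the share of all FAIRE peaks but overlaps the intervals of these 3 groups, which does not show that the groups are equal. It also lies above that over all LRH-1 peaks before hCG (46.7%, 45.4 to 47.9), which include the sites. With only neighbours whose FAIRE score was at or above the median of the list, a choice made after the values were seen, the shares were 38.4% (33.0 to 44.0) at the sites, 32.0% (27.6 to 36.7) at persistent sites in closing chromatin and 21.7% (15.2 to 29.3) at lost peaks with FAIRE at both times. There the interval of the sites overlaps that of the persistent sites but lies above that of lost peaks with FAIRE at both times. It also lies above the 29.9% (28.3 to 31.6) over all LRH-1 peaks before hCG. With neighbours below that median, where the intervals of these groups overlap, the shares were 68.9% (63.5 to 74.0), 63.6% (58.9 to 68.1) and 72.3% (64.2 to 79.5). Where the neighbour lay within 10 kb they were 54.5% (46.6 to 62.2), 43.0% (37.1 to 48.9) and 59.1% (46.3 to 71.0). For the 244 sites in the better-scoring LRH-1 peaks the share was 49.2% (42.7 to 55.6), an interval that holds the 46.2% of all FAIRE peaks, and for the persistent sites among these peaks it was 47.6%. Within 100 kb, 979 of 1954 other FAIRE peaks before hCG (50.1%, a FAIRE peak near several sites counted at each) were lost, against 45.5% around persistent sites in closing chromatin. Of the 335 sites with 3 or more other FAIRE peaks within 100 kb, 27 (8.06%) lost them all and 26 (7.76%) lost none. These shares were 5.48% and 9.82% over all LRH-1 peaks before hCG with 3 or more such neighbours, and 7.90% and 7.18% over the persistent sites in closing chromatin. The nearest other LRH-1 peak before hCG was lost at 226 sites (35.7%, 95% interval 32.0 to 39.6), an interval that holds the 33.1% of all LRH-1 peaks. With lists of equal length this share at the sites moved to 48.2%, and with the better-scoring LRH-1 peaks alone to 23.8%. The share over all LRH-1 peaks was not recomputed for those lists.

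**Figure D4:**
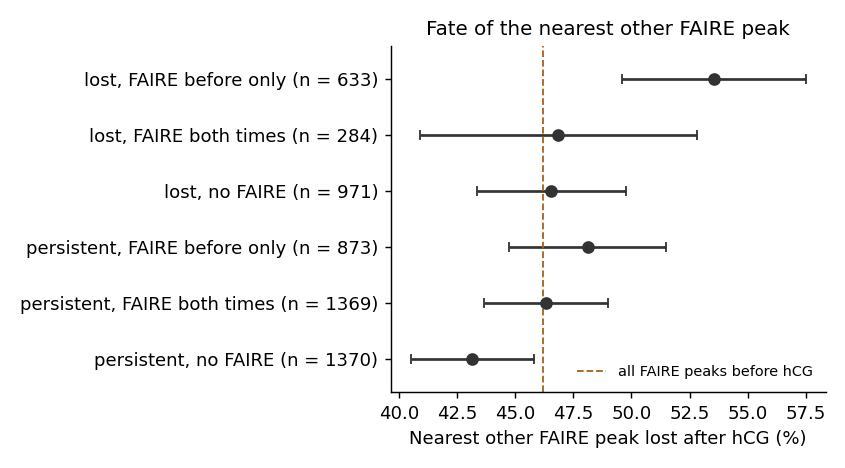
Share of LRH-1 peaks before hCG whose nearest other FAIRE peak before hCG was lost after it (horizontal, percent, axis from about 40), with exact binomial 95% intervals, for 6 groups by fate of the LRH-1 peak and presence of FAIRE (number of peaks in brackets). The dashed line is the 46.2% of all FAIRE peaks before hCG, and the 633 sites stand at 53.6%.

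The sites were scattered over all 20 chromosomes of the lists. Their share of the LRH-1 peaks before hCG ran from 7.14% on chromosome 19 (13 sites) and 7.60% on chromosome 15 (19 sites) to 14.2% on chromosome 18 (27 sites) and 16.7% on chromosome X (13 sites, 95% interval 9.18 to 26.8). The intervals of all chromosomes hold the 10.8% of the whole list. The median distance from a site to the next was 1033 kb, and 4 of 633 had another within 10 kb. By windows of 1 Mb, 420 held 1 site, 83 held 2, 14 held 3 and 1 held 5.

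The window with 5 sites lay on chromosome 7 from 137000001 to 138000000. In it 10 of 14 LRH-1 peaks and 15 of 22 FAIRE peaks before hCG were lost, while 8 of 12 LRH-1 peaks and 12 of 19 FAIRE peaks after hCG were new. The lost peaks include the 5 sites and the FAIRE peaks that held them, and the window was picked for holding most sites. A 5.55-fold site (137284688 to 137284952) and a 3.83-fold site (137292435 to 137292653) stood close together, in FAIRE peaks that scored 76.7 and 44.9. All 4 other LRH-1 peaks within 100 kb of each were lost too, and so were 4 of 5 other FAIRE peaks. These counts include the other site of the pair and its FAIRE peak, which the rule chose as lost. The third site, 6.10-fold enriched (137517983 to 137518355), lay in a FAIRE peak with a score of 58.5, and both other FAIRE peaks within 100 kb were lost. The remaining pair, at 6.5-fold (137680523 to 137680847) and 5.69-fold (137757641 to 137757957), lay in stronger FAIRE peaks that scored 164 and 167. There 1 of 3 other LRH-1 peaks within 100 kb of each was lost, and 3 and 4 of 7 other FAIRE peaks. The 1 lost LRH-1 peak near each was the other site of the pair, lost by the rule. The lost FAIRE peaks near each likewise include the one that held the other site. The window thus mixed lost, gained and persistent peaks within 1 Mb.

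**Figure D5:**
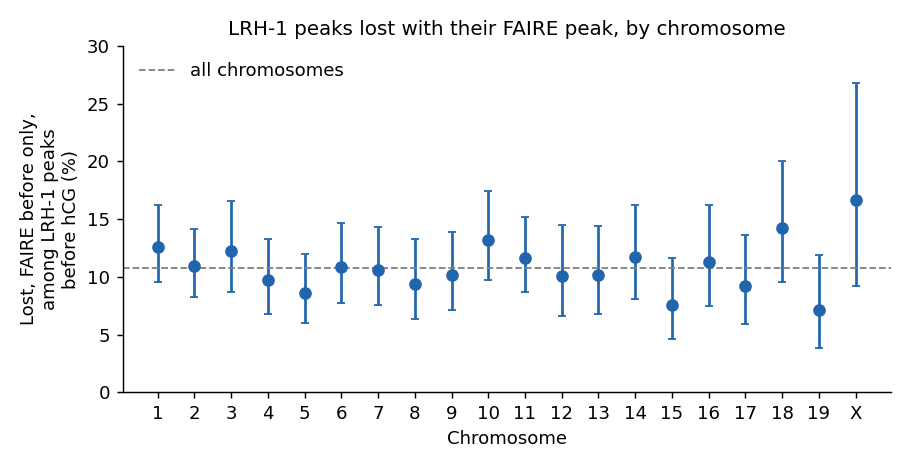
Share of the LRH-1 peaks before hCG on each chromosome (horizontal) that were lost with their FAIRE peak (vertical, percent), with exact binomial 95% intervals. The dashed line is the 10.8% of the whole list, which lies inside every interval.

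A new LRH-1 site in newly open chromatin lay within 10 kb of 12 of the 633 sites (1.90%, 95% interval 0.983 to 3.29), against 2.74% over all LRH-1 peaks before hCG. The nearest gained LRH-1 peak in chromatin that FAIRE listed as open after hCG alone lay a median of 572 kb from the sites (95% interval 507 to 670), against 439 kb (399 to 494) for persistent sites in closing chromatin. It was 455 kb (369 to 567) for lost peaks at FAIRE peaks of both times and 429 kb (380 to 514) for lost peaks without a FAIRE peak, and both of these intervals overlap that of the sites. The closest such pair was on chromosome 9, where a 6.19-fold site (42125868 to 42126120, FAIRE score 65.8) was lost and a 3.87-fold peak (42124378 to 42124624, FAIRE score 79.3) appeared 1.54 kb away. On chromosome 13, a 4.49-fold site (20475800 to 20476018, FAIRE score 60.7) was lost and a 6.42-fold peak (20478786 to 20479122) appeared 3.05 kb away in a FAIRE peak with a score of 235. Also on chromosome 13, a 5.15-fold site (38445532 to 38445750, FAIRE score 43) was lost and a 4.72-fold peak (38442063 to 38442295, FAIRE score 103) appeared 3.47 kb away. The choice of these pairs sets that both LRH-1 and FAIRE were listed at the first position before hCG only and at the second after hCG only.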

How the data were processed

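The 4 peak lists of LRH-1 ChIP and FAIRE, before and after hCG, were used. Per the submitters' processing notes, reads were aligned with BWA to mm9, and MACS2 2.1.0 and bedtools were used for ChIP. Names in the FAIRE lists begin with MACS, per the file contents. Its version, and whether the 2 replicates that each label states were pooled, are not given in the sources used here. In the deposited LRH-1 lists stand a score, the ratio of the peak to background (fold enrichment), the −log10 of the p-value and q-value and the summit. The deposited FAIRE lists give a score of at least 40 per peak, with the scale not stated. These are the authors' values and rank peaks within a list. On 10 of 20 chromosomes some peak starts past the end of every gene that the GRCm38 table places there, so neither the genes nor the sequences of that build were joined to the peaks. RNA was not used here, as it could not be linked to the sites.

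Overlaps, distances (from LRH-1 summits and FAIRE middles) and exact (Clopper-Pearson) 95% intervals were computed with scipy 1.17.1, pandas 2.3.3 and numpy 2.4.6 under Python 3.11.15. Intervals of medians come from order statistics. The code was tested on simulated peaks. The sites and the measures were chosen with earlier results of these data known. The sites named are the 5 best by −log10 q and by FAIRE score, those of the fullest window and FAIRE peak, those nearest to the limits of the rule, and the 3 nearest to a gained peak in newly open chromatin. The windows next in order tie at 3 sites and are not described. Read depths are not in the sources used here, so the depth behind the peaks is unknown. Starts count from 1. Alternatives are other overlap rules, stricter lists, equal list lengths, edge distances and shifted windows.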

Additional observations from a re-analysis of the deposited data

How the results depend on the processing

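The number of sites, their share of lost peaks, the medians of LRH-1 and FAIRE values, the main neighbour values and the fullest window were recomputed under 10 alternatives, not all of which bear on each value. Correlations, chromosome shares, distances to other peaks before hCG or to gained peaks in newly open chromatin, and shares with no peak nearby were not recomputed, nor was the share whose nearest LRH-1 peak after hCG was gained. Requiring an overlap of the larger part of the shorter peak, the summit inside the FAIRE peak, no peak after hCG within 500 bp or the loss of the whole FAIRE peak gave 643, 635, 603 and 617 sites, and every other recomputed value stayed inside its 95% interval or, for the most sites in a window, within 1.5 times. With the better-scoring LRH-1 peaks alone there were 244 sites, 38.9% of lost peaks, with a median of 6.54-fold, 49.2% of nearest other FAIRE peaks lost and at most 3 sites in a window. With the better-scoring FAIRE peaks alone there were 311 sites, 16.0% of lost peaks, with a median FAIRE score of 101.5, 36.3% of nearest other FAIRE peaks lost and at most 3 sites in a window. These lists hold fewer peaks by construction. With lists of equal length there were 843 sites and 54.1% had an LRH-1 peak after hCG within 100 kb. The median distances were then 84.2 kb to such a peak and 222 kb to a gained one. The nearest other LRH-1 peak was lost at 48.2% (44.7 to 51.6) of the sites with these lists. That share was 23.8% (18.6 to 29.6) with the better-scoring LRH-1 peaks alone. With neighbours at or above the median FAIRE score, added after the data were seen, 38.4% of nearest other FAIRE peaks were lost. Alternative settings for RNA were not run, as no gene was linked to a site. In all, 22 of 123 recomputed values moved beyond these limits. No paired analysis was possible because each assay and time has 1 peak list. Read depth and spread between replicates are unknown, and a peak under the calling threshold cannot be told from an absent one.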

Other observations

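Seen from open chromatin, 616 of the 9910 FAIRE peaks lost after hCG (6.22%) held a site lost with them, and 1452 held any LRH-1 peak before hCG. LRH-1 peaks at the narrowest width in the list before hCG (219 bp) made up 86 of the 633 sites (13.6%) and 600 of all 5886 LRH-1 peaks (10.2%).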
